A study of Mus musculus with 9 samples.

Results

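The genes described here are 8 genes of cholesterol balance in macrophages sorted from regenerating mouse liver. They were picked by name, with earlier results of these data known, to set the sterol synthesis programme of SREBP2 beside the efflux programme of LXR. Srebf2, Hmgcs1, Sqle and Insig1 stand for the first, and Abca1, Abcg1, Apoe and Mylip for the second. They are 8 of the 56691 genes in the deposited count table, and all 8 were among the 20204 genes that passed the filter on low counts. Liver macrophages carrying F4/80 and CD11b were collected by cell sorting 0, 24 or 48 h after partial hepatectomy (PHx), an operation that takes out a share of the liver and sets off its regrowth, and 3 RNA libraries were sequenced per time. All 9 libraries carry the same cell type label, and the labels give no agent or genetic alteration in any of them. The study's methods name male C57BL/6 mice. No source used here states if libraries of the same time stem from different mice. The p-values below therefore reflect the spread among libraries, which is not shown to be that among mice and may be technical.

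SREBP2, the product of Srebf2, is a transcription factor held in the membrane of the endoplasmic reticulum by SCAP and the INSIG proteins while sterols are plentiful. When sterols fall, it is cut free and switches on the enzymes of cholesterol synthesis and genes of lipoprotein uptake. The LXR receptors act the other way: oxysterols bind them when cholesterol is in excess, and they switch on exporters such as ABCA1 and ABCG1, the lipid carrier apolipoprotein E, and MYLIP, a ubiquitin ligase that limits lipoprotein uptake. Macrophages depend on this balance because they take up lipoproteins and whole dying cells.

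A promoter stretch from each programme is printed to show the kind of element through which the factors are known to act. The sterol regulatory element searched for was TCACNCCAC, and the LXR element was a pair of GGTNA half-sites with 5 bases between them, each on either strand, in RefSeq windows of 300 bases around the start of transcription (GRCm38.p6). Of the 8 genes, 6 have a window in that table, and Sqle and Abcg1 were not matched. Among the 6, the sterol element was found in Hmgcs1 alone and the LXR element in Abca1 alone. The Hmgcs1 stretch lies at chr13:119690144-119690292 on the + strand, upstream of the gene, with the element at -137 to -129 from the start site. The Abca1 stretch lies at chr4:53159896-53160032 on the - strand, upstream of the gene, with the half-site pair at -67 to -53 and read on the strand opposite to the gene. The capitals mark the element.
Hmgcs1: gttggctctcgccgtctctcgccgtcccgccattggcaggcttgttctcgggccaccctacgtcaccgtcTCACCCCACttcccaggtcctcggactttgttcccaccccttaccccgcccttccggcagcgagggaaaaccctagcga
Abca1: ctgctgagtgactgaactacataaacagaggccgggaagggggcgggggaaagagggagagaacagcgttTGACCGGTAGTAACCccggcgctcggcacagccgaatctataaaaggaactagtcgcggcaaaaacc
The sterol element was found in 408 of 32851 promoters (1.24%) and the half-site pair in 236 (0.718%). In the 66 promoter windows matched to genes of the sterol pathway lists used below, the sterol element occurred in 1 (Hmgcs1) and the half-site pair in 2 (Abca1 and Srebf1). A match is a description of letters, and binding of either factor was not measured.

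Values are levels in CPM, which is a gene's count relative to the TMM-scaled total of its library. Differences are log2 fold changes from edgeR's quasi-likelihood test, called at a Benjamini-Hochberg adjusted p under 0.05. The standard error (SE) was derived from that test, as the absolute log2 fold change divided by the square root of the F statistic. The libraries summed to 53297943 to 67951168 counts, and the 48 h libraries stood apart. Mitochondrially encoded genes took 7.06% to 17.9% of their counts, against at most 4.53% in the other 6. The summed level of 12 liver endothelial markers was 226 to 234 CPM at 0 h, 392 to 664 CPM at 24 h and 4969.8 to 5934 CPM at 48 h. The sum of 6 B cell markers was 12.4 to 30.9 CPM at 0 h, 15.8 to 35.5 CPM at 24 h and 334 to 760.0 CPM at 48 h. The sum of 8 macrophage markers was 64836 to 83186 CPM at 0 h, 38015 to 83817.5 CPM at 24 h and 10349.6 to 24208.5 CPM at 48 h. Lyz2 alone made up most of that sum, at 61916 to 79003 CPM at 0 h and 9566 to 22331.5 CPM at 48 h. At 48 h against 0 h, 12 of 12 endothelial and 5 of 6 B cell markers were called higher, and 6 of 8 macrophage and 7 of 7 monocyte markers were called lower. Of 10 markers of Kupffer cells, the resident macrophages of the liver, 5 were called higher and 0 lower at 48 h against 0 h (median log2 fold change 2.03). The 48 h libraries lay wholly above those of 0 h for 3 of the 10, against 16.5% of all genes. The sum of the 10 was 2076 to 3730 CPM at 0 h and 4677 to 6222 CPM at 24 h. In replicates 1 to 3 of 48 h it was 9378, 1552 and 2916 CPM. At 24 h edgeR called 0 of the 10, while for 9 the libraries lay wholly above those of 0 h, against 8.37% of all genes (median 1.27). No marker of these lists was at 0 in all libraries of a time. In such bulk libraries, fewer cells of a type and less RNA per cell cannot be told apart.

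**Figure D1:**
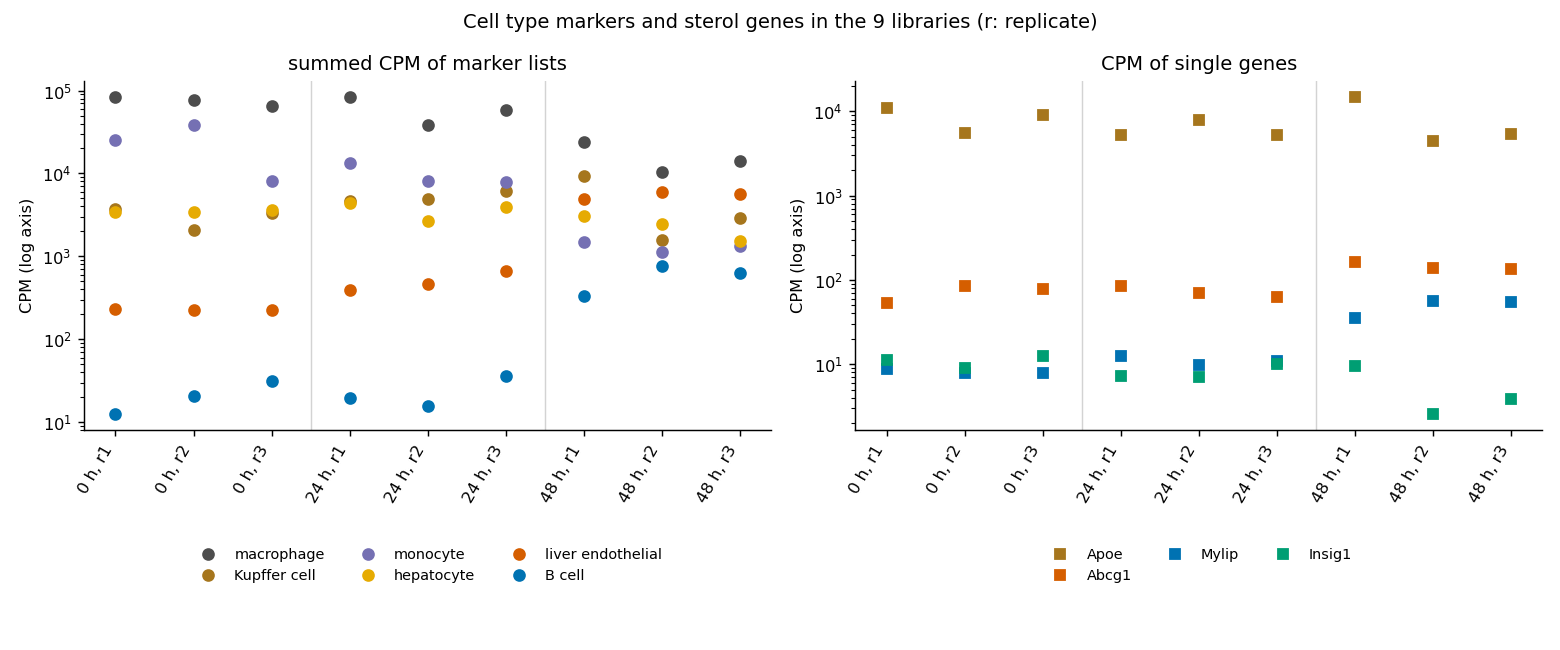
Summed CPM of 6 cell type marker lists (left) and CPM of 4 sterol genes (right) in each of the 9 libraries, both on log axes, with 1 point per library. The endothelial and B cell sums and the levels of Mylip and Abcg1 are highest in the 3 libraries of 48 h, and the Kupffer cell sum and Apoe are highest in 48 h replicate 1.

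At 24 h none of the 8 genes changed by the test. edgeR called 0 of 8 higher and 0 of 8 lower than at 0 h, against 0.0495% of all genes called higher and 0.0297% called lower. At an unadjusted p under 0.05 the counts were also 0 and 0, as they were with DESeq2 and with limma-voom. The 24 h libraries lay wholly above those of 0 h for 1 gene (Mylip), against 8.37% of all genes, and wholly below for 1 (Hmgcs1), against 8.92%. At 48 h against 0 h, 2 of the 8 rose, Mylip and Abcg1, and 0 fell, against 9.86% of all genes called higher and 8.95% called lower. An unadjusted p under 0.05 was reached by 2 that were higher and 2 that were lower (Hmgcs1 and Insig1), and DESeq2 and limma-voom each called 2 higher and 0 lower. The 48 h libraries lay wholly above those of 0 h for these 2 risers, against 16.5% of all genes, and wholly below for Hmgcs1, against 19.7%. The median log2 fold change of the 8 was -0.10 at 24 h and -0.01 at 48 h, beside -0.03 and -0.04 for all genes tested. Both comparisons share the 0 h libraries.

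**Figure D2:**
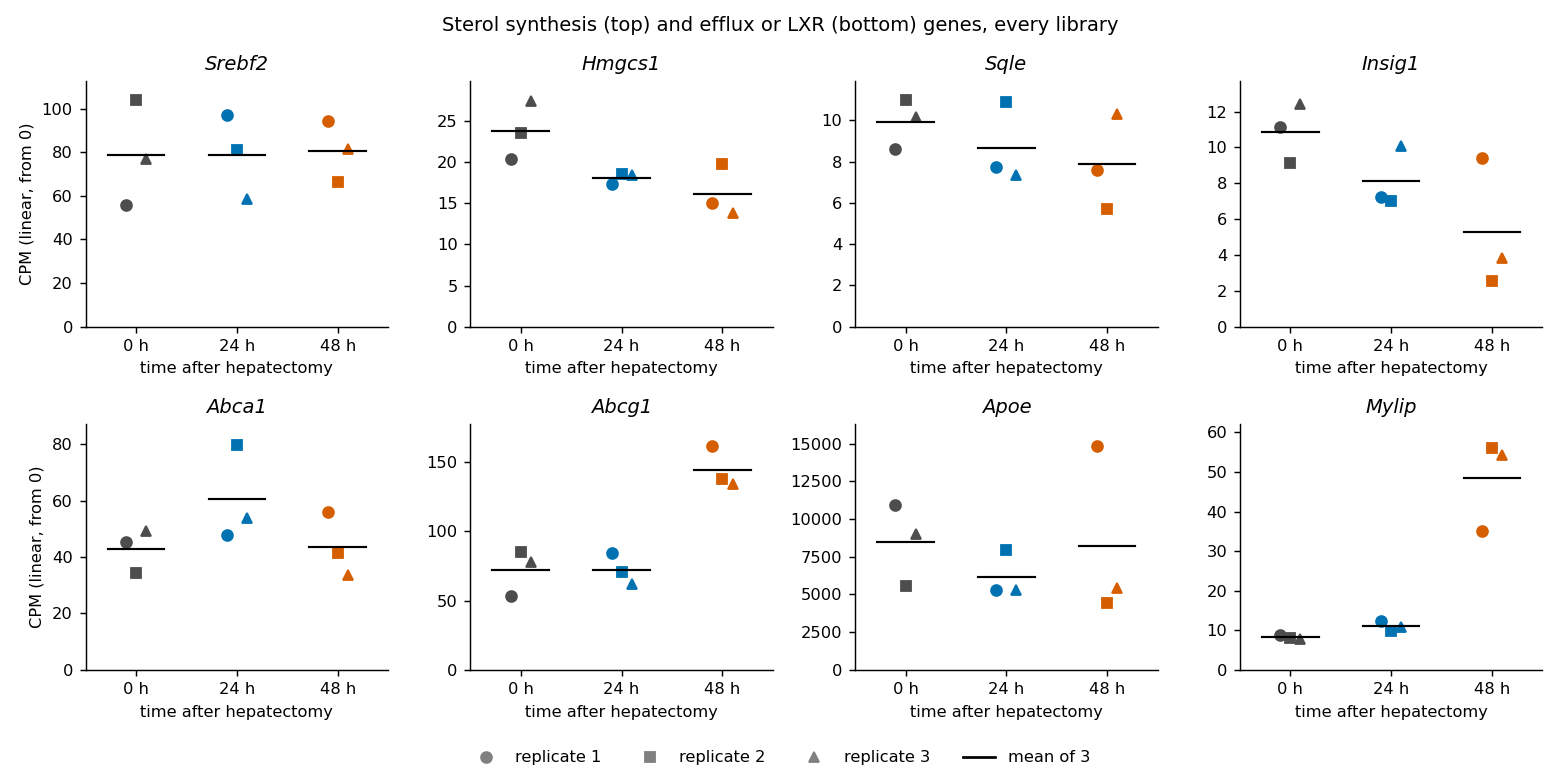
CPM of the 8 genes in each library by hours after PHx (0, 24 or 48), on linear axes from 0, with the replicate number as the symbol and the mean of 3 libraries as a bar. Mylip and Abcg1 at 48 h lie above all other libraries, Insig1 at 48 h is split between replicate 1 (9.43 CPM) and the other two, and Srebf2 overlaps at all times.

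Srebf2 (ENSMUSG00000022463), the gene of the synthesis programme's transcription factor, was at 56.0, 103.9 and 77.0 CPM in the 3 libraries of 0 h, at 96.9, 80.9 and 58.5 at 24 h and at 94.4, 66.3 and 81.3 at 48 h. The 3 times overlapped fully. Its log2 fold change was -0.00 (SE 0.26, adjusted p = 1) at 24 h and 0.03 (SE 0.26, adjusted p = 0.957) at 48 h, both against 0 h, so no difference beyond the spread was detectable. Of SREBP2's partners, Scap, the escort that carries it to the Golgi, was at 9.31 to 13.6 CPM at 0 h and 15.5 to 17.9 at 48 h (log2 fold change 0.49, SE 0.27, adjusted p = 0.241). The 48 h libraries of Scap lay above those of 0 h without passing the test.

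Hmgcs1 (ENSMUSG00000093930), whose enzyme makes HMG-CoA for the synthesis of mevalonate, was at 20.4, 23.5 and 27.5 CPM at 0 h, at 17.3, 18.6 and 18.4 at 24 h and at 15.0, 19.8 and 13.8 at 48 h. Every later library was below every 0 h library. The log2 fold change was -0.40 at 24 h (SE 0.20, adjusted p = 0.841) and -0.56 at 48 h (SE 0.20, adjusted p = 0.0846), and neither passed. Without 48 h replicate 2, the highest of its time, the 48 h value was -0.67 with an adjusted p of 0.0499. The annotation places 557 of the 4594 exon bases of Hmgcs1 (12.1%) over exons of Gm48342 on the opposite strand, and no source used here gives the strand setting of the counting, so reads of the 2 genes cannot be told apart there.

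Sqle (ENSMUSG00000022351) encodes squalene epoxidase, a rate-limiting enzyme late in the pathway. It was at 8.60, 11.0 and 10.2 CPM at 0 h, at 7.71, 10.9 and 7.34 at 24 h and at 7.60, 5.70 and 10.3 at 48 h. The times overlapped, and the log2 fold change at 48 h was -0.33 (SE 0.28, adjusted p = 0.478). Insig1 (ENSMUSG00000045294), an SREBP2 target whose protein in turn retains SREBP2, was at 11.1, 9.11 and 12.4 CPM at 0 h, at 7.22, 7.03 and 10.1 at 24 h and at 9.43, 2.53 and 3.83 at 48 h. Replicates 2 and 3 of 48 h were the lowest of the 9 libraries, and replicate 1 lay within the range of 0 h. With all libraries the log2 fold change at 48 h was -1.05 (SE 0.43, adjusted p = 0.123). Without 48 h replicate 1 it was -1.78 and passed (adjusted p = 0.00435), and against 24 h it was -1.35 (adjusted p = 0.0149), so this 1 library decided both calls. Its paralogue Insig2, whose protein also retains SREBP2, was at 8.60 to 13.8 CPM at 0 h and 14.0 to 17.9 at 48 h (log2 fold change 0.59, SE 0.25, adjusted p = 0.130). The ratio of Insig1 to Insig2 counts within a library was 1.29, 0.888 and 0.901 at 0 h, 0.471, 0.612 and 0.973 at 24 h and 0.674, 0.141 and 0.220 at 48 h. All 3 ratios of 48 h lay below those of 0 h, with replicate 1 the nearest to them.

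The other enzymes of the pathway were lower at 48 h in part. Of 21 synthesis enzymes, all tested and Hmgcs1 and Sqle among them, 7 fell and 0 rose at 48 h against 0 h, against 8.95% of all genes called lower and 9.86% called higher, with a median log2 fold change of -0.70 beside -0.04 for all genes. The 7 included Acat2, Pmvk, Mvd, Idi1, Cyp51 and Sc5d, of which Idi1 and Cyp51 were named after their values were seen. DESeq2 called 8 lower and limma-voom 7, both 0 higher. The macrophage and monocyte marker sums were lower in the same 3 libraries of 48 h, and their part in these falls was not tested. The 48 h libraries lay wholly below those of 0 h for 9 of the 21. Leaving out 1 library at a time gave 2 to 6 calls, the 2 without 0 h replicate 3, the library in which Acat2, Idi1, Fdps and Sc5d were highest. At 24 h edgeR called 0 of the 21 in either direction, as did DESeq2 and limma-voom, while 1 was lower and 0 higher with an unadjusted p under 0.05, and the median was -0.20 beside -0.03.

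The largest falls were in neighbouring steps that turn mevalonate into the isoprene unit. Mvd, mevalonate diphosphate decarboxylase, was at 24.9, 39.1 and 30.3 CPM at 0 h, at 22.6, 32.5 and 29.1 at 24 h and at 7.93, 7.26 and 10.05 at 48 h. Pmvk, phosphomevalonate kinase, was at 18.3, 33.6 and 28.3 CPM at 0 h, at 17.6, 26.2 and 24.8 at 24 h and at 7.82, 4.79 and 9.48 at 48 h. In both genes the 3 libraries of 48 h lay well below the other 6, which overlapped. The log2 fold change at 48 h against 0 h was -1.90 for Mvd (SE 0.24, adjusted p = 0.000358), which is 3.74-fold lower. For Pmvk it was -1.86 (SE 0.31, adjusted p = 0.00215), or 3.63-fold lower. Both calls held under all 18 alternatives. Mvk, mevalonate kinase, which acts just before Pmvk, was at 7.30, 10.7 and 14.5 CPM at 0 h and at 18.7, 15.5 and 3.59 at 48 h. Its replicates at 48 h were split and overlapped those of 0 h (log2 fold change 0.22, SE 0.49, adjusted p = 0.822).

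Sc5d, which acts near the end of the pathway, was 2.68-fold lower at 48 h than at 0 h (log2 fold change -1.42, SE 0.35, adjusted p = 0.0178), a call that ended on omission of replicate 1 or 3 of 0 h or replicate 2 or 3 of 48 h (adjusted p up to 0.0776) and with only the 6 libraries compared. Acat2 was 2.16-fold lower (adjusted p = 0.0200) and missed the threshold on omission of 0 h replicate 3 or 48 h replicate 1 (up to 0.0897). Idi1 was 2.38-fold lower (adjusted p = 0.0388) and was called in 12 of 18 alternatives, the call ending on omission of any 0 h library, 24 h replicate 1 or 48 h replicate 1 or 2 (adjusted p up to 0.142). Cyp51 was 1.78-fold lower (adjusted p = 0.0286) and was called in 8 of 18 alternatives, the call ending with no filter, with only the 6 libraries compared and on omission of any library other than 48 h replicate 1 (adjusted p up to 0.114). Dhcr7, a reductase of the last steps, was not called and its times overlapped, at 2.77 to 5.10 CPM at 0 h and 2.80 to 8.58 CPM at 48 h (log2 fold change 0.38, SE 0.42, adjusted p = 0.595).

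**Figure D3:**
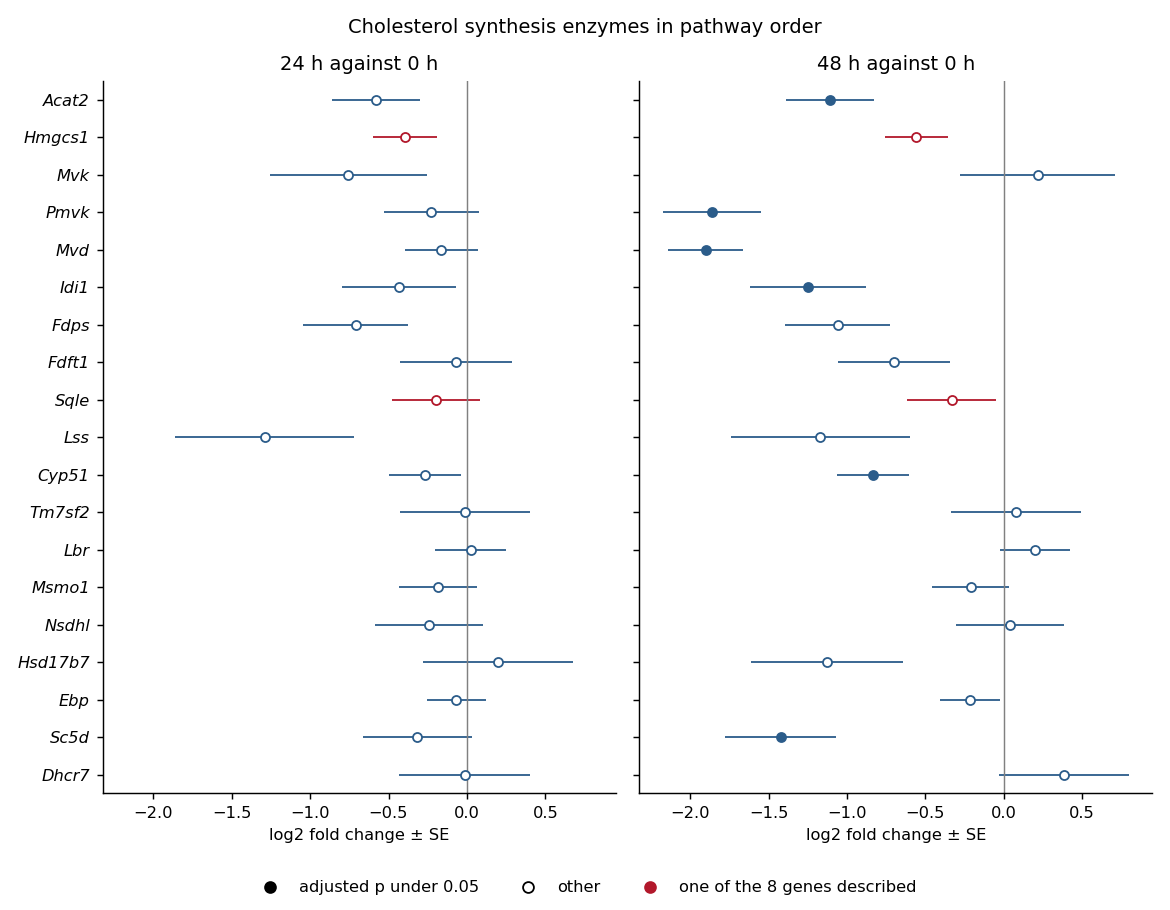
Log2 fold change with its SE (bars) of 19 cholesterol synthesis enzymes in pathway order, from the first condensation step at the top to the last reductions at the bottom, at 24 h (left) and 48 h (right) against 0 h, 3 libraries per time. Filled points passed an adjusted p under 0.05: 0 at 24 h, and at 48 h 6, all lower, with Mvd at -1.90 and Pmvk at -1.86 the farthest from 0.

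Among 10 genes that control SREBP, 1 rose and 0 fell at 48 h against 0 h, a share near the 9.86% and 8.95% of all genes. DESeq2 and limma-voom each called 1 higher and 1 lower, and at an unadjusted p below 0.05 there were 2 in each direction. The riser was Rnf145, a ubiquitin ligase of the endoplasmic reticulum that is a known LXR target and acts on SCAP. It was at 42.1, 40.9 and 51.6 CPM at 0 h, at 53.5, 55.1 and 58.9 at 24 h and at 182, 172 and 114 at 48 h. The 3 times did not overlap, and the rise at 48 h was 3.47-fold (log2 fold change 1.79, SE 0.21, adjusted p = 0.000225), called under all 18 alternatives. At 24 h its log2 fold change was 0.32 (SE 0.20, adjusted p = 0.992). The endothelial and B cell marker sums rose in the same 48 h libraries as Rnf145. Within 48 h Rnf145 was highest in replicate 1, where both sums were lowest. The part of these cell types in the rise of Rnf145 was not tested. Srebf1, the paralogue of Srebf2 that drives fatty acid synthesis and is itself an LXR target, was at 145, 179 and 192 CPM at 0 h, at 188, 216 and 132 at 24 h and at 110, 75.2 and 121 at 48 h. All of its 48 h libraries lay below the others (log2 fold change against 0 h -0.75, SE 0.24, adjusted p = 0.0561). That difference missed the threshold with edgeR and passed it with DESeq2 (adjusted p = 0.0280) and limma-voom (adjusted p = 0.0427), and was called in 4 of 18 alternatives. Against 24 h it was -0.81 (SE 0.24) and passed (adjusted p = 0.0412), but the call held in only 6 of 18 alternatives and in 1 of the 9 that leave out a library (adjusted p up to 0.173).

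Mylip (ENSMUSG00000038175), an LXR-induced ubiquitin ligase that limits lipoprotein uptake, changed the most of the 8. It was at 8.78, 7.94 and 7.90 CPM at 0 h, at 12.4, 9.88 and 10.9 at 24 h and at 35.0, 56.1 and 54.3 at 48 h. The 3 times did not overlap, and replicate 1 was the lowest at 48 h. The rise at 48 h was 5.91-fold (log2 fold change 2.56, SE 0.23, adjusted p = 3.85e-05), and at 24 h the log2 fold change was 0.43 (SE 0.22, adjusted p = 0.820). The 48 h value ranged from 2.49 to 2.75 over 18 alternatives and was called in all of them. The summed endothelial, B cell, and T and NK cell markers rose in the same 3 libraries, and like Mylip each sum was lowest of the 3 in replicate 1. In replicates 1 to 3 the endothelial sum was 4969.8, 5934 and 5722 CPM and the B cell sum 334, 760.0 and 634 CPM. The sum of 7 T and NK cell markers was 51.0, 51.7 and 98.5 CPM, nearly equal in replicates 1 and 2. Rnf145 and, as given below, Abcg1 and Mertk were also called higher at 48 h but were highest of the 3 in replicate 1. The part of these cell types in the rise of Mylip was not tested. The ratio of Mylip to Mvd counts within a library, which sets the riser beside the enzyme of the largest fall and needs no scaling between libraries, was 0.352, 0.203 and 0.261 at 0 h, 0.550, 0.304 and 0.374 at 24 h and 4.41, 7.73 and 5.40 at 48 h. The pair was chosen for the changes in these same libraries, so a split of 48 h from the rest followed from the choice. Mylip had fewer counts than Mvd in all 6 libraries of 0 and 24 h and more in all 3 of 48 h. The counts were not scaled by exon length (3.233 kb for Mylip and 1.859 kb for Mvd).

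Of 11 uptake and transport genes, Mylip included, 1 rose and 4 fell at 48 h against 0 h, against 9.86% and 8.95% of all genes (median -0.46 beside -0.04). The single riser is at the general rate. Among those that fell, the endocytic receptor Lrp1 went from 247, 305 and 289 CPM at 0 h to 197, 50.9 and 70.4 (log2 fold change -1.40, SE 0.43, adjusted p = 0.0435). That call was kept in 7 of 18 alternatives and was lost with RLE factors, with only the 6 libraries compared, with the 20 most-counted genes left out and without any single library other than 48 h replicate 1 (adjusted p up to 0.148). Both genes of the protein pair that carries cholesterol out of the lysosome were called lower, measured as RNA alone. Npc1 was at 208, 164 and 148 CPM at 0 h and 116, 53.5 and 67.6 at 48 h (-1.13, SE 0.29, adjusted p = 0.0213, ended by omission of replicate 1 or 2 of 0 h or replicate 2 or 3 of 48 h, up to 0.114, and with only the 6 libraries compared). Npc2 was at 390, 475 and 330 CPM at 0 h and 232, 177 and 197 at 48 h (-0.98, SE 0.20, adjusted p = 0.00617), and its call held under all 18 alternatives. At 24 h edgeR, DESeq2 and limma-voom called 0 of the 11 in either direction, and 0 had an unadjusted p under 0.05. The macrophage marker sum was lower in the same 3 libraries of 48 h, and its part in these falls was not tested.

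Of the 2 exporters, Abcg1 rose at 48 h, and for Abca1 no difference beyond the spread was detectable. Abcg1 (ENSMUSG00000024030), which passes cholesterol to HDL, was at 53.3, 85.3 and 78.2 CPM at 0 h, at 84.7, 70.5 and 61.9 at 24 h and at 162, 138 and 134 at 48 h. The 0 and 24 h libraries overlapped, and every 48 h library lay above them. The log2 fold change at 48 h was 1.00 against 0 h (SE 0.22, adjusted p = 0.00892), a rise of 2.00-fold, and was called under all 18 alternatives. At 24 h it was 0.00 (SE 0.21, adjusted p = 1). Abca1 (ENSMUSG00000015243), which loads lipid-poor apolipoprotein A-I and carries the half-site pair shown above, was at 45.3, 34.3 and 49.2 CPM at 0 h, at 47.7, 79.8 and 53.9 at 24 h and at 55.9, 41.5 and 33.7 at 48 h. The highest value was 24 h replicate 2, and the times overlapped (log2 fold change 0.50, SE 0.26, adjusted p = 0.855 at 24 h and 0.03, SE 0.26, adjusted p = 0.965 at 48 h). The ratio of Abcg1 to Abca1 counts was 1.18, 2.49 and 1.59 at 0 h, 1.77, 0.884 and 1.15 at 24 h and 2.90, 3.32 and 3.99 at 48 h, so that all 3 ratios of 48 h lay above the other 6. The endothelial marker sum rose in the same libraries as Abcg1, at 4969.8, 5934 and 5722 CPM in replicates 1 to 3 of 48 h. Within 48 h Abcg1 was highest in replicate 1, where that sum was lowest. The part of endothelial cells in the rise of Abcg1 was not tested.

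**Figure D4:**
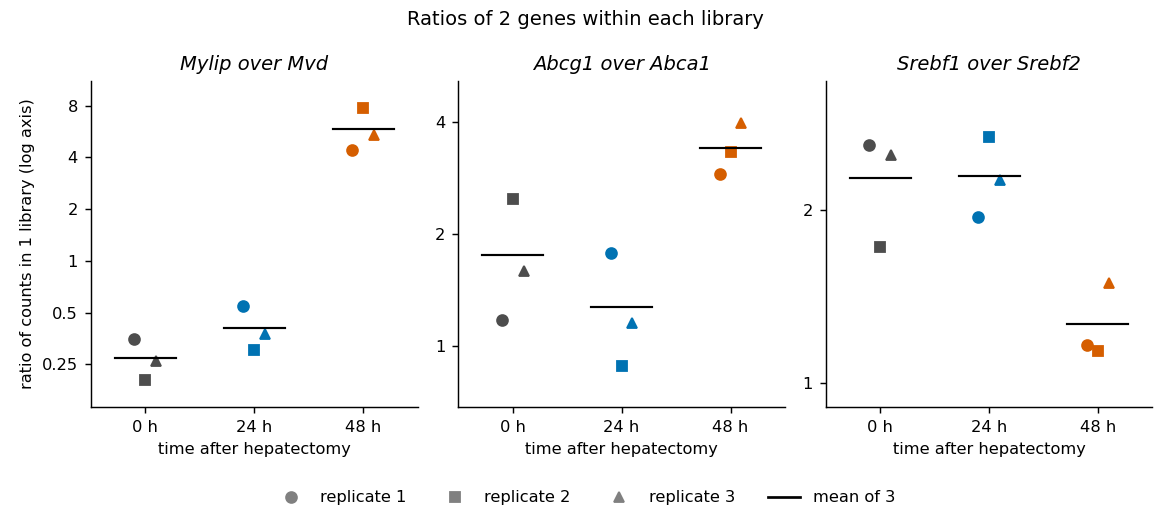
Ratio of the counts of 2 genes within each library, on log axes, by hours after PHx (0, 24 or 48), with the replicate number as the symbol and the mean of 3 libraries as a bar. Mylip over Mvd goes from at most 0.550 before 48 h to 4.41, 7.73 and 5.40, Abcg1 over Abca1 is at 2.90 to 3.99 at 48 h, and Srebf1 over Srebf2 is at 1.13 to 1.49 at 48 h against 1.72 to 2.68 before. Mylip and Mvd were paired for their changes in these same libraries.

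Apoe (ENSMUSG00000002985), the apolipoprotein that macrophages secrete with exported lipid, was at 10939.6, 5566 and 8980.05 CPM at 0 h, at 5269, 7953 and 5300.5 at 24 h and at 14855, 4430.2 and 5422 at 48 h. Replicate 1 of 48 h was the highest of the 9 libraries and replicate 2 of the same time the lowest, so the spread at 48 h covered all others. The log2 fold change was -0.46 at 24 h (SE 0.45, adjusted p = 1) and -0.04 at 48 h (SE 0.45, adjusted p = 0.964), and without 48 h replicate 1 the latter was -0.79. The sum of 10 Kupffer cell markers was 9378 CPM in 48 h replicate 1, against 1552 and 2916 in replicates 2 and 3. That sum was higher in all libraries of 24 h (4677 to 6222 CPM) than at 0 h (2076 to 3730 CPM). The mean of Apoe was lower at 24 h (6174 CPM) than at 0 h (8495 CPM). The part of Kupffer cells in the spread of Apoe was not tested. Per kb of exon, the mean level of Apoe at 0 h was 3973 CPM per kb, against 11.0 for Srebf2, 9.90 for Abcg1, 5.19 for Hmgcs1, 4.14 for Abca1, 3.52 for Insig1, 2.54 for Mylip and 1.79 for Sqle. At 48 h the order changed, with Abcg1 at 19.8 and Mylip at 15.0 CPM per kb, both above Srebf2 at 11.2.

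LXR targets were called in both directions. Of 17, with Abca1, Abcg1, Apoe and Mylip among them, 3 rose and 2 fell at 48 h against 0 h, against 9.86% and 8.95% of all genes, and the median was -0.00 beside -0.04. With DESeq2 4 were higher and 3 lower, and with limma-voom 3 and 3. Rnf145, named above as an LXR target that rose, is not among the 17, so the count depends on the list. Besides Mylip and Abcg1 the riser of the 17 was Mertk, a receptor for the engulfment of dying cells, at 20.3, 20.8 and 14.2 CPM at 0 h, 17.3, 20.8 and 22.1 at 24 h and 45.5, 39.8 and 30.4 at 48 h. All 3 of its 48 h libraries lay above the rest (log2 fold change 1.07, SE 0.23, adjusted p = 0.00817, called under all 18 alternatives). The 2 that fell were Arl4c, a small GTPase, from 44.5 to 47.9 CPM at 0 h to 16.0 to 28.0 at 48 h (-1.06, SE 0.22, adjusted p = 0.00809, also called under all 18), and Smpdl3a, a secreted phosphodiesterase. Smpdl3a went from 440.3 to 617 CPM at 0 h to 145 to 319 at 48 h (-1.23, SE 0.31, adjusted p = 0.0211), a call that ended on omission of replicate 1 or 2 of 0 h or replicate 2 or 3 of 48 h (adjusted p up to 0.104). The cell type marker sums differed in the same 48 h libraries, and their part in these rises and falls was not tested. Of 7 LXR receptors and partners edgeR, DESeq2 and limma-voom called 0 at 48 h against 0 h, with 1 higher and 0 lower at an unadjusted p below 0.05. Nr1h3, the gene of LXR alpha, was at 29.5, 27.8 and 38.5 CPM at 0 h, at 74.4, 38.8 and 65.4 at 24 h and at 81.6, 20.2 and 31.0 at 48 h. All 24 h libraries lay above those of 0 h (log2 fold change 0.90, SE 0.45, adjusted p = 0.818), and at 48 h only replicate 1, the library with the highest Kupffer cell sum, was high. Nr1h2, the gene of LXR beta, stayed at 18.1 to 28.2 CPM in all 9 libraries. At 24 h edgeR called 0 of the 17 targets in either direction, as did DESeq2 and limma-voom, while 1 was higher and 1 lower at an unadjusted p below 0.05 (median 0.12 beside -0.03).

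**Figure D5:**
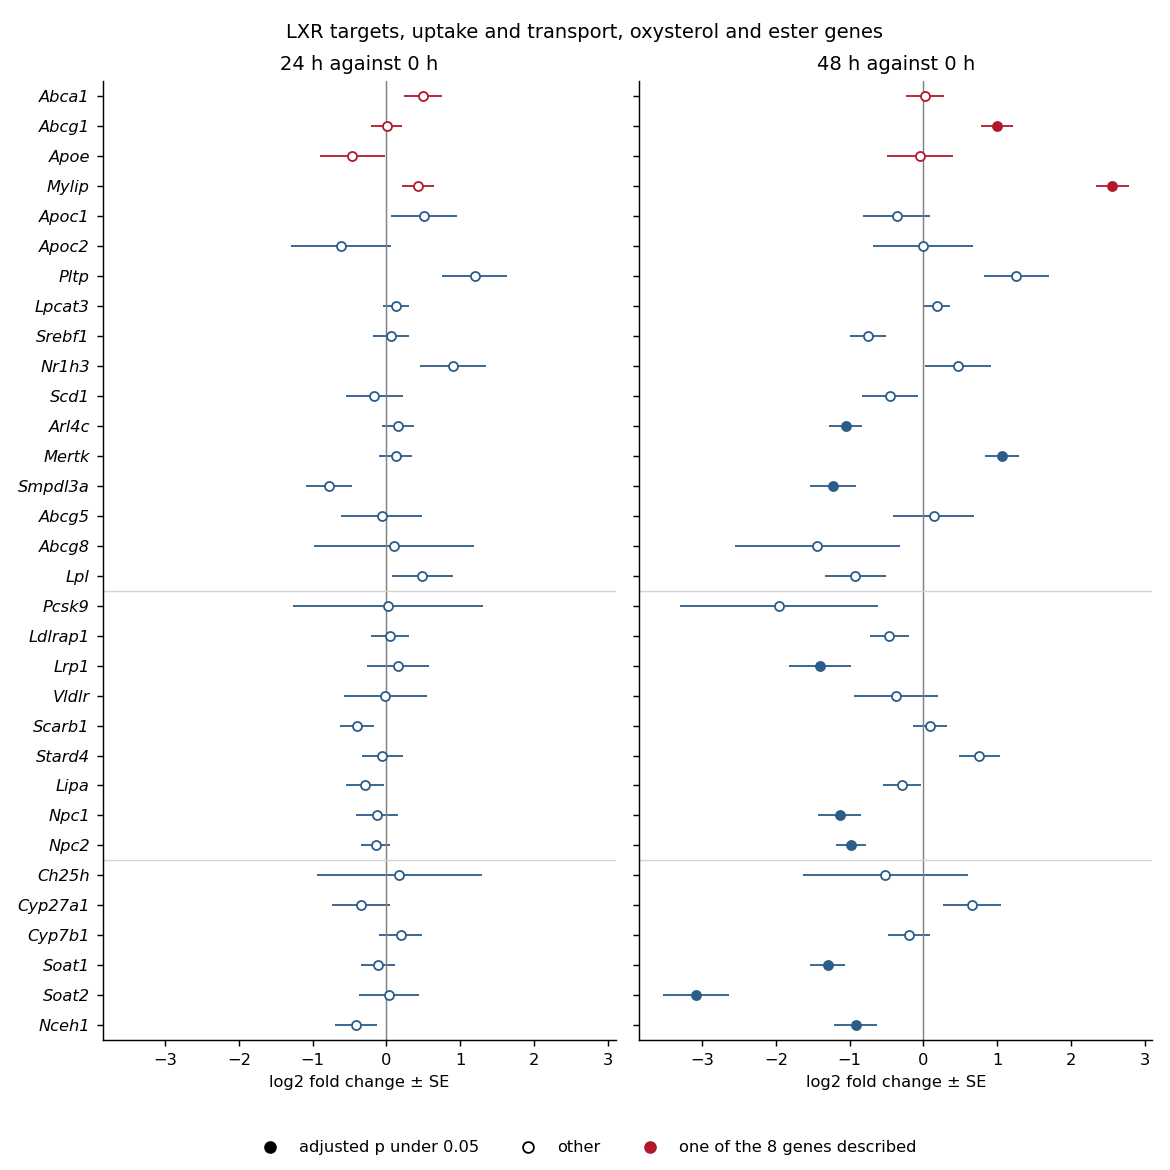
Log2 fold change with its SE (bars) of LXR targets, uptake and transport genes, and oxysterol and ester genes (separated by lines, top to bottom) at 24 h (left) and 48 h (right) against 0 h, 3 libraries per time. Filled points passed an adjusted p under 0.05. At 48 h Mylip lies at 2.56 and Abcg1 at 1.00, Mertk is the only other gene called higher, and 8 of the genes shown are called lower.

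Between 24 and 48 h the 8 genes gave the same count. Against 24 h, Mylip rose by 2.13 on the log2 scale (SE 0.22, adjusted p = 0.000124) and Abcg1 by 1.00 (SE 0.22, adjusted p = 0.00850), and 0 of the 8 fell with edgeR, DESeq2 or limma-voom (0 lower at an unadjusted p under 0.05). Among all genes 10.2% were called higher and 9.60% lower. The 48 h libraries lay wholly above those of 24 h for 2 of the 8, against 17.2% of all genes, and wholly below for 0, against 18.4%. The median of the 8 was -0.05 beside 0.05. Of the 21 synthesis enzymes 4 fell, with Pmvk, Mvd and Sc5d among them, and 0 rose, with a median of -0.35. Sc5d was near the threshold (adjusted p = 0.0489) and kept the call in 6 of 18 alternatives. This comparison shares the 48 h libraries with that against 0 h.

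By the mean absolute difference of log2 CPM over the 9 libraries, each gene centred on its mean, and among genes with a mean of at least 10 CPM, the genes nearest to 2 of the 8 were listed. For Sqle these were Nmd3 (0.102), Herc4 (0.115) and Wdfy2 (0.121), where the median over the 7340 genes compared was 0.393. For Abca1 they were Tbc1d1 (0.154), Rtn4 (0.162) and Nup93 (0.164), against a median of 0.433. For Mylip, added after its values were seen, they were Ece1 (0.107), Iigp1 (0.145) and Sh2d3c (0.153), against a median of 1.10.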

How the data were processed

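Macrophages were sorted from mouse liver, and their RNA was sequenced in 3 libraries for each of 0, 24 and 48 h after PHx. A table of estimated counts per Ensembl gene and library, whole numbers not scaled to depth, was deposited. Tools named in the submitters' processing notes are CASAVA 1.8, HISAT2 2.0.5 and featureCounts 1.5.0-p3. Their genome build and annotation were not given in the sources used here. Multiples of 4 made up 40.9% to 47.6% of the values from 4 to 40 in a library, which no source used here explains, so a unit may not be a single fragment. Totals of 53297943 to 67951168 were therefore not read as a measure of counting precision. The tests still modelled the deposited units as counts, together with the spread between libraries, and counts divided by 4 were tried as an alternative. All per-sample columns were used (0 unused). Symbols were matched for 52073 of 56691 IDs, and the rest, 1.63% to 3.32% of the counts, stayed in the test.

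Genes were filtered with filterByExpr (minimum count 10), scaled by TMM and fitted over all 9 libraries with time as the only factor in edgeR 4.0.16 (glmQLFit, glmQLFTest; R 4.3.3), adjusting p-values over all 20204 genes by Benjamini-Hochberg with a threshold of 0.05. The steps were tested on simulated data. Alternatives were DESeq2 1.42.0, limma-voom (limma 3.58.1), RLE factors, 2 other filters, only the libraries compared, the replicate number as a block, the 20 most-counted genes left out, counts divided by 4, and each library left out. Exon lengths for CPM per kb came from GENCODE M21 and promoters from RefSeq. The 8 genes and all lists were chosen with earlier results of these data known. By rule, the text names the 8 genes, up to 4 called members of each pathway list with the smallest p, Srebf1, Scap, Insig2, Nr1h3 and Nr1h2, and the genes nearest in pattern to Sqle and Abca1. Other genes named (Mvk, Dhcr7, Fdps, Idi1, Cyp51, Ch25h, Lyz2, Adgre1, Csf1r, Itgam and those nearest to Mylip) were chosen after their values were seen. So was the pair of Mylip and Mvd for a ratio. Some genes that the lists and the rule cover are counted in the lists but not reported here.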

Additional observations from a re-analysis of the deposited data

How the results depend on the processing

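Over 18 alternatives, 9 of which leave out 1 library, the 8 genes gave 429 values. Of these 398 kept their direction and side of the threshold, 0 lost a call, 3 gained one and 28 changed sign, none of them called. Mylip and Abcg1 kept their calls at 48 h in every alternative. Signs changed as follows. Abcg1 at 24 h against 0 h was -0.014 with at least 10 counts in every library, -0.001 with the replicate block and -0.004 with counts divided by 4. Apoe at 48 h against 0 h was 0.023 with no filter and 0.029 with only the 6 libraries compared. Srebf2 at 24 h against 0 h was 0.022 with RLE factors, 0.002 with no filter, 0.022 with DESeq2 and 0.009 with limma-voom. Leaving out 1 library moved, against 0 h at 24 h, Abcg1 from -0.168 to 0.141 and Srebf2 from -0.193 to 0.246. At 48 h against 0 h it moved Abca1 from -0.193 to 0.231, Apoe from -0.787 to 0.311, Nr1h3 from -0.32 to 0.877 and Srebf2 from -0.115 to 0.323. At 48 h against 24 h it moved Apoe from -0.329 to 0.771, Sqle from -0.329 to 0.101 and Srebf2 from -0.097 to 0.252.

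Counts of calls moved too. With 1 library left out, the 8 genes called lower ranged from 0 to 1 at 48 h against 0 h (Insig1 without 48 h replicate 1, Hmgcs1 without 48 h replicate 2) and from 0 to 1 against 24 h. Synthesis enzymes called lower at 48 h against 0 h ranged from 2 to 6, and those called higher against 24 h from 0 to 1. LXR targets called lower ranged from 1 to 3 in both, and were 1 against 24 h with only the 6 libraries compared. Over all settings the count of all genes at 24 h against 0 h ranged from 0 to 267 higher and 0 to 107 lower, beside 10 and 6. The median of all genes at 48 h against 0 h was -0.193 with no filter and -0.189 with limma-voom, beside -0.037, and against 24 h -0.094 with limma-voom beside 0.050. Deviations from the mean of a time correlated at -0.015 to 0.07 between same-numbered libraries and at -0.061 to 0.053 between the others. Not every library correlated best with its own number. With 3 libraries per time such values cannot decide if the numbers pair the samples, and the main fit did not pair them. The replicate block gave 1 and 1 calls at 24 h against 0 h. The cause of these changes was not tested. With 3 libraries per time and deposited units that may not be single fragments, small differences were not detectable.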

Other observations

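Genes that make oxysterols or store cholesterol as ester were measured beside the 8 genes. Of 6, 3 fell and 0 rose at 48 h against 0 h by edgeR's quasi-likelihood test against 8.95% of all genes called lower and 9.86% called higher (median -0.72 beside -0.04 for all genes). Soat2, a cholesterol esterifying enzyme known mainly from intestine and liver cells, was at 4.46, 6.63 and 3.82 CPM at 0 h, at 3.67, 5.88 and 5.68 at 24 h and at 0.615, 0.328 and 0.806 at 48 h. Its 48 h libraries lay far below the others (log2 fold change -3.09, SE 0.45, adjusted p = 0.000835, called under all 18 alternatives). Soat1, the esterifying enzyme of macrophages, was at 59.7 to 72.7 CPM at 0 h and 19.3 to 33.4 at 48 h (-1.30, SE 0.23, adjusted p = 0.00327, called under all 18). Nceh1, which hydrolyses stored esters, fell by 0.92 on the log2 scale (SE 0.29, adjusted p = 0.0487), a call kept in 6 of 18 alternatives and lost with RLE factors, with no filter, with only the 6 libraries compared, with the 20 most-counted genes left out and without any single library other than 48 h replicate 1 (adjusted p up to 0.189). Ch25h, which makes 25-hydroxycholesterol, was at 0.0312 to 1.95 CPM in all 9 libraries. At 24 h edgeR, DESeq2 and limma-voom called 0 of the 6 in either direction, with 0 at an unadjusted p under 0.05. The macrophage and monocyte marker sums were lower in the same 48 h libraries, and their part in these falls was not tested.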
